A study of Homo sapiens with 33 samples.

Results

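The genes described here are 10 members of the ATF4 stress response, of the 58302 genes in the expression matrix. They were chosen by name, as rows of the matrix whose symbol is ATF4, DDIT3, ATF3, TRIB3, SESN2, CHAC1, SLC7A11, ASNS, PHGDH or PSAT1, and all 10 were found. CHAC1 was singled out for its values in MPP89 cells, so those values are given as a description with no test. The RNA-seq data are from 6 established human cell lines in 33 libraries. H2052, H2452, H28 and MSTO-211H are malignant pleural mesothelioma (MPM) lines that are sensitive to palbociclib, an inhibitor of the cell cycle kinases CDK4 and CDK6. MPP89 is an MPM line with a mutated RB1 that is resistant to the drug. MeT-5A, the other resistant line, was made by immortalizing normal mesothelial cells with SV40. All 6 are cultured lines, not tumour tissue. Cells were kept for 9 or 10 days in 1 µM palbociclib or in 0.1% DMSO, the solvent, and all groups shared the same serum-containing medium. DMSO and palbociclib libraries came in pairs from the same experiment, with 3 pairs each for H28, H2452 and MSTO-211H, 2 pairs each for H2052 and MPP89 and 1 pair for MeT-5A, which also had 1 untreated library. In each of the 4 sensitive lines, 1 further library came from cells treated for 10 days with palbociclib and then grown for 48 h without it (washout).

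ATF4 is a transcription factor at the centre of the integrated stress response. When amino acids run short, proteins misfold in the endoplasmic reticulum, or other stresses activate one of the eIF2 kinases, general translation slows while translation of the ATF4 mRNA increases. ATF4 protein then switches on genes for amino acid synthesis and uptake, for antioxidant defence and, under prolonged stress, for growth arrest and cell death. Because much of the control of ATF4 is translational, its mRNA is only an indirect readout of the protein, which was not measured here. The members fall into transcription factors and regulators (ATF4, DDIT3, ATF3, TRIB3, SESN2), genes of cystine uptake and glutathione (SLC7A11, CHAC1) and enzymes of serine and asparagine synthesis (PHGDH, PSAT1, ASNS).

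Many sites of ATF4 in its target genes are composite elements with the letters TGATGNAA, where N is any base. These 8 letters were searched on both strands in the RefSeq promoter table of GRCh38.p14, from 250 bases before to 50 after each transcription start. Of 35116 promoters, 3.62% held a match. The table had 15 promoters of 9 members, SLC7A11 being the one not listed, and 3 of these 15 promoters held a match, those of CHAC1, ASNS and ATF3. The 250 bases before these starts are shown because they are the members with a match, with the match in capitals.
CHAC1: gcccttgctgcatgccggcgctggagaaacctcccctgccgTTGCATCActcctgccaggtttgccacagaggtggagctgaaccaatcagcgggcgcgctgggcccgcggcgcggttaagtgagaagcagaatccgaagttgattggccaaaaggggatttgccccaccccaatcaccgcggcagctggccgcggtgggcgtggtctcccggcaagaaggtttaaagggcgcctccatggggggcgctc
ASNS: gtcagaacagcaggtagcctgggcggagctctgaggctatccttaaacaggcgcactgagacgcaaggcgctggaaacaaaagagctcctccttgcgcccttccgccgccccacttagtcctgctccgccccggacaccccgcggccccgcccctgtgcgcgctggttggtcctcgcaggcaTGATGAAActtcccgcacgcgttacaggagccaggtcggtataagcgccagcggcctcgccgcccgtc
ATF3: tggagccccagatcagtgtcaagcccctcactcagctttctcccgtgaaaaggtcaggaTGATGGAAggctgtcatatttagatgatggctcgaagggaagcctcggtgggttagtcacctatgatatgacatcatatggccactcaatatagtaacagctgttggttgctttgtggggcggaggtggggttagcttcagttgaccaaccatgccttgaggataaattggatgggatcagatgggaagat
The CHAC1 sequence is chr15:40953221-40953470 on the plus strand, and its match lies on the opposite strand from -209 to -202 relative to the start. The ASNS sequence is chr7:97872409-97872658 on the minus strand, with the match from -68 to -61. The ATF3 sequence is chr1:212565157-212565406 on the plus strand, with the match from -191 to -184. The second ASNS start and the second ATF3 start in the table had no match in their windows. A match is a match of letters, and binding of ATF4 was not measured. The search does not cover sites outside this window or with other letters, so a promoter without a match is not shown to lack a site.

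Values are CP20M, the authors' counts per 20000000 reads, rounded up to whole numbers. A library with fewer reads than this scale skips some of the whole numbers up to 120, and the share it skips put the depth of 23 libraries at 12700000 to 19700000 counted reads, so that 1 read was worth at most 1.58 CP20M. The other 10 libraries skipped none, so no estimate was made for them. Replicate libraries of a group had equal values at no more than 0.712% of genes with 100 CP20M or more, so none was counted as a duplicate. Of 8 mesothelial markers (MSLN, CALB2, WT1, PDPN, UPK3B, KRT5, KRT18, KRT19), 3 to 6 reached a mean of 100 CP20M in the control libraries of each line, and their summed level went from 6840 in H28 to 45922 in H2052. H28 had MSLN, CALB2, PDPN and KRT5 at 4.33, 0.67, 1.33 and 0 CP20M. The leukocyte marker PTPRC, the endothelial marker PECAM1 and the epithelial marker EPCAM stayed at or under 53.7 CP20M in all 6 lines. The proliferation marker MKI67 fell in all 11 sensitive pairs, with a log2 fold change of -3.10 (SE 0.35, limma adjusted p = 1.38e-05).

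The 10 members covered a wide range of levels. Per kb of merged exon, the median over the 14 DMSO libraries was highest for ATF4, at 1673 CP20M per kb, followed by PSAT1 at 569.6 and SLC7A11 at 515.2, and lowest for ATF3 at 45.6 and CHAC1 at 39.7. CHAC1 encodes an enzyme that breaks down glutathione, and it reached 100 CP20M in 14 of the 33 libraries, from 9 CP20M in MSTO-211H DMSO replicate 1 to 475 in H2452 palbociclib replicate 3. ATF3 reached 100 CP20M in 25 libraries, and each of the other members did so in all 33. CHAC1 was therefore tested over all sensitive lines, in H2052 and in H2452, but not within H28 or MSTO-211H, where no DMSO or palbociclib library reached 100 CP20M.

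**Figure D1:**
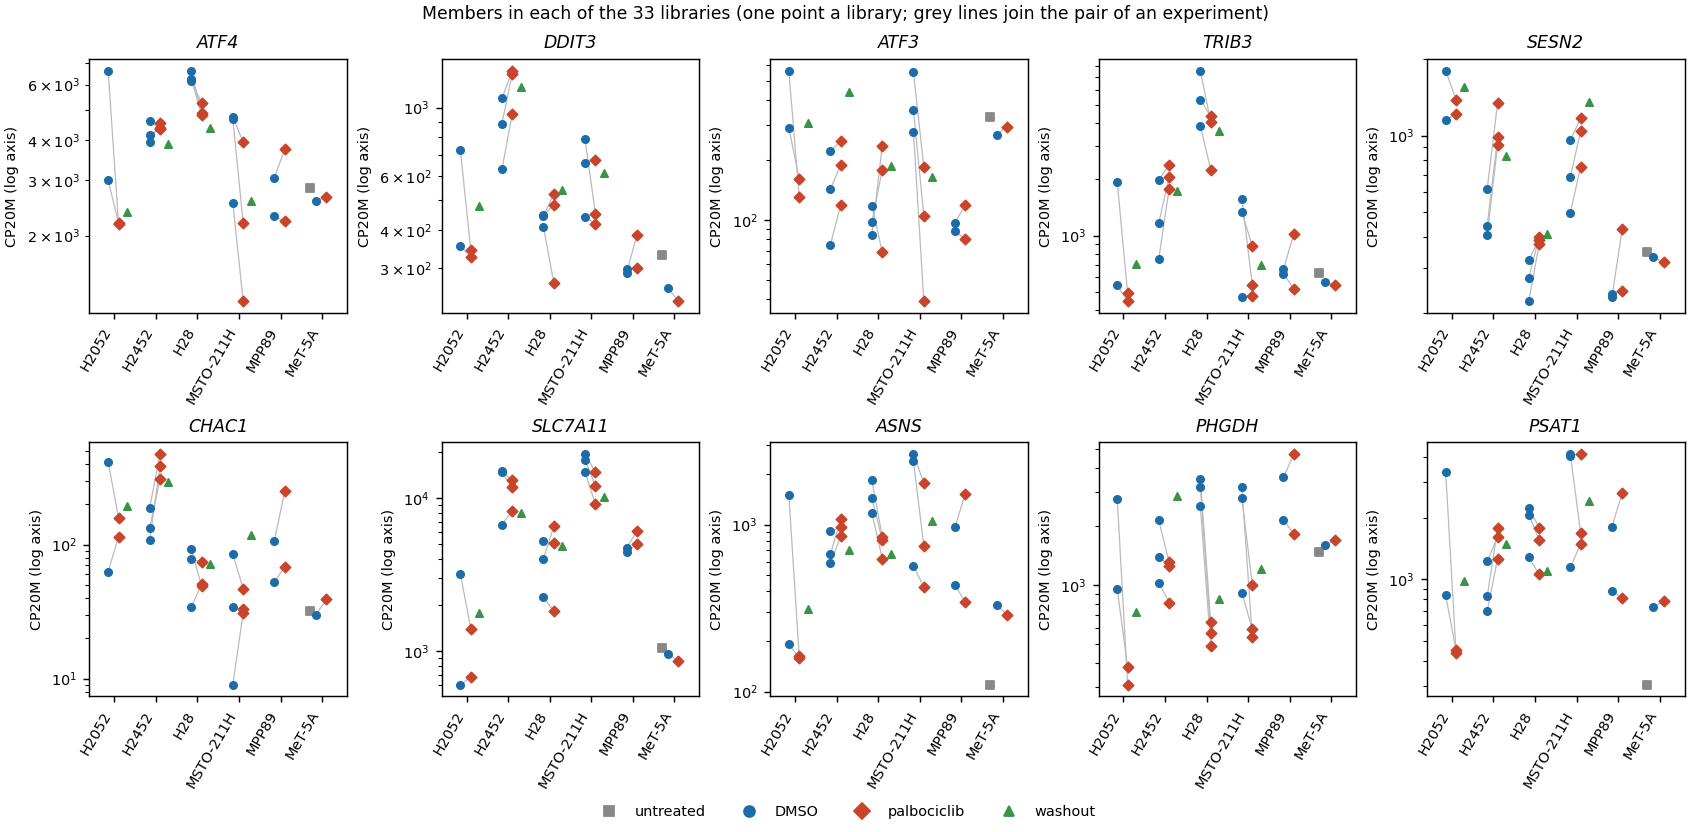
CP20M (log axis) of the 10 members in each library, by cell line, with DMSO as circles, palbociclib as diamonds, washout as triangles and the untreated MeT-5A library as a square; grey lines join the DMSO and palbociclib libraries of an experiment. PHGDH was lower with palbociclib in each pair of the 4 sensitive lines, and CHAC1 in H2452 was at 109 to 189 CP20M with DMSO and at 311 to 475 with palbociclib.

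The levels of the lines were compared in their DMSO libraries, the vehicle controls kept for 9 or 10 days alongside the treated cells. CHAC1, chosen on MPP89 values that this comparison includes, was left out of the test and is described by its values. The level among lines differed for 6 of the other 9 members (ATF4, DDIT3, ATF3, TRIB3, SESN2 and SLC7A11; limma F test, FDR under 0.05, with the line means as the only term), against 96% of all 17091 genes tested. Among the 3 not called, PSAT1 had an adjusted p of 0.123, ASNS of 0.160 and PHGDH of 0.293. CHAC1 was at 63 and 415 CP20M in H2052, at 133, 109 and 189 in H2452, at 53 and 107 in MPP89, at 78, 93 and 34 in H28, at 9, 34 and 85 in MSTO-211H and at 30 in MeT-5A, so that most neighbouring lines overlapped.
SLC7A11, the cystine transporter that feeds glutathione synthesis, was at 17690, 19318 and 14744 CP20M in the DMSO libraries of MSTO-211H and at 14654, 6687 and 14856 in those of H2452. It was at 5228, 2235 and 4013 in H28, at 4710 and 4428 in MPP89, at 602 and 3173 in H2052 and at 957 in MeT-5A. MSTO-211H was therefore highest, overlapping with H2452 only, and H2452 did not overlap with the next line, MPP89. TRIB3, a pseudokinase that restrains ATF4 activity, was at 7593, 3864 and 5298 CP20M in H28, above all DMSO libraries of the other 5 lines, where it went from 470 to 1973. SESN2, a sensor of leucine that restrains mTORC1, was highest in H2052, at 1156 and 1804 CP20M, with no overlap with MSTO-211H at 497, 688 and 961. ATF4 itself averaged 6339 ± 245 CP20M (SD, n = 3) in H28, and MPP89 had 2299 and 3047, while each of the neighbouring lines in its order overlapped. DDIT3, which encodes the pro-apoptotic factor CHOP, was lowest in MeT-5A, at 259 CP20M, and had its highest mean in H2452, at 863 ± 222 (SD, n = 3), which overlapped with MSTO-211H and H2052. ATF3 had its lowest line mean in MPP89, at 88 and 97 CP20M, which overlapped with H28 at 84 to 118 and H2452 at 75 to 222, and its highest in H2052, at 291 and 564, which overlapped with MSTO-211H at 278 to 554.

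DMSO libraries of the same line differed widely in these genes. ASNS, which makes asparagine from aspartate, was at 192 and 1508 CP20M in the 2 DMSO libraries of H2052 and at 563, 2641 and 2385 in those of MSTO-211H. The SD within lines on the log2(CP20M + 10) scale, pooled over 13 DMSO libraries of 5 lines, was 1.02 for ASNS, and 99.7% of 16871 genes had a smaller one. For CHAC1 it was 0.97, which includes the MPP89 values and is a description with no rank among genes. The SD was 0.83 for PSAT1, 0.78 for TRIB3, 0.76 for SLC7A11 and 0.71 for PHGDH, each of them above that of at least 98.1% of genes. It was lower for ATF3 (0.51), ATF4 (0.40), DDIT3 (0.38) and SESN2 (0.35), and the median over all genes was 0.22.
Across the 13 libraries, all 45 pairs of members had a positive correlation of their deviations from the line mean, with a median Pearson's r of 0.78 and a range of 0.37 to 0.98. This is a description of libraries that share lines, experiments and scaling, and it has no test. The same summary for pairs of other genes is not given here, so these correlations are not shown to be particular to the members. The pairs with CHAC1 include its MPP89 values, for which it was singled out. H2052 DMSO replicate 2 had all 10 members above replicate 1, by amounts from SESN2 at 1156 and 1804 CP20M to ASNS. The share of all genes higher in replicate 2 is not given here. MKI67 was at 11235 CP20M in replicate 1 and at 4725 in replicate 2. MSTO-211H DMSO replicate 1 was below replicates 2 and 3 in 9 of the 10 members, SLC7A11 being the exception. There MKI67 was at 3355, 1555 and 5593 CP20M in replicates 1, 2 and 3. The relation of the spread to proliferation was not tested. H2052 DMSO replicate 2 was harvested at 10 days and replicate 1 at 9 days, while in MSTO-211H replicates 1 and 2 were both harvested at 9 days and replicate 3 at 10. The part of the harvest day in this spread was not tested.

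**Figure D2:**
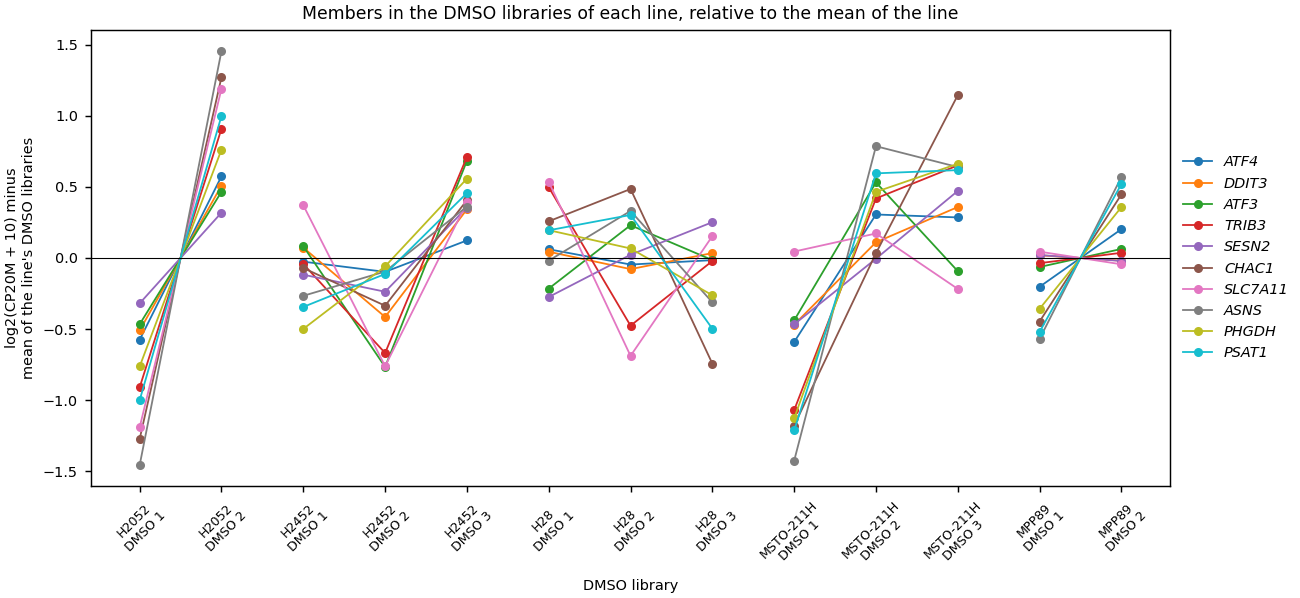
log2(CP20M + 10) of each member in the 13 DMSO libraries of 5 lines minus the mean of the line's DMSO libraries; points are libraries, and lines join libraries of a cell line for reading only. All 10 members are higher in H2052 DMSO replicate 2 than in replicate 1, and among the MSTO-211H libraries 9 of 10 are lowest in replicate 1.

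The main question was how these genes respond to the CDK4/6 inhibitor in lines that arrest. Over the 11 pairs of the sensitive lines, 1 of the 10 members was called (fold change above 1.5 and FDR under 0.05, limma with the experiment as a block), PHGDH, which fell. In the same comparison 5.82% of 16759 genes were called higher and 9.5% lower. Median-of-ratios scaling moved the median of all genes from -0.11 to 0.06 and the calls from 976 higher and 1592 lower to 1697 higher and 875 lower. The study, with DESeq2 and a larger set of sensitive lines, reported more genes up-regulated than down-regulated. Here that was the balance with median-of-ratios scaling and not with the main scaling, so the shares of all genes depend on the scaling. The share of higher calls within H2052, H2452, H28 and MSTO-211H went from 24.6%, 36.7%, 44.6% and 40.2% to 58.6%, 56.5%, 55.6% and 62.5%. Without H2452, 4 members were called, all lower (ATF4, TRIB3, ASNS and PHGDH), and without H2052, 2 were, SESN2 higher and PHGDH lower. The median log2 fold change was -0.33 over the members and -0.11 over all genes.
PHGDH encodes the enzyme of the first step of serine synthesis. It was at 956 and 2768 CP20M in H2052 with DMSO and at 379 and 309 with palbociclib. In H28 it was at 3481, 3183 and 2532 CP20M with DMSO and at 644, 569 and 490 with palbociclib. MSTO-211H had PHGDH at 917, 2783 and 3192 CP20M with DMSO and at 596, 1007 and 541 with palbociclib, so that 1 DMSO library lay among the treated ones. In H2452 the values were 1029, 1399 and 2150 CP20M with DMSO and 814, 1258 and 1308 with palbociclib, which overlap. PHGDH was lower in 11 of 11 pairs, with a mean of 2217 CP20M with DMSO and 719.5 with palbociclib, and its log2 fold change was -1.59 (SE 0.27, limma adjusted p = 0.000316), that is 3.01-fold lower. This fit takes the 11 pairs as units although they come from 4 lines. With the 4 line means as units, an alternative chosen after seeing the data, PHGDH was the one member called, at -1.64 (SE 0.31, limma adjusted p = 0.0203).
PSAT1, the enzyme of the next step of the same pathway, was lower in 6 of 11 pairs, and its log2 fold change was -0.30 (SE 0.29, limma adjusted p = 0.399), or -0.042 without H2052 replicate 2. ASNS was lower in 8 of 11 pairs, and its log2 fold change was -0.69 (SE 0.28, limma adjusted p = 0.0534), and was not called. It was called when any one H2452 replicate was left out (limma adjusted p = 0.0304, 0.0246 and 0.0473 without replicates 1, 2 and 3), and without H2052 replicate 2 its value was -0.44.
SESN2 was higher in 10 of 11 pairs, and its log2 fold change was 0.55 (SE 0.13, limma adjusted p = 0.00338), which is 1.47-fold and so under the 1.5-fold limit.  ATF4 was lower in 9 of 11 pairs, and its log2 fold change was -0.48 (SE 0.15, limma adjusted p = 0.0141), also under the fold limit. With median-of-ratios scaling SESN2 was called, at 0.74, while ATF4 was at -0.29 with a limma adjusted p of 0.1002. With the 4 line means as units, the limma adjusted p was 0.124 for SESN2 and 0.0863 for ATF4. Without H2452 SESN2 was at 0.33 (limma adjusted p = 0.0427), and without MSTO-211H the adjusted p of ATF4 was 0.0933. DDIT3 had a log2 fold change of -0.08, which became 0.11 with median-of-ratios scaling, SLC7A11 of -0.23, TRIB3 of -0.36, ATF3 of -0.54 and CHAC1 of 0.32, all with limma adjusted p-values of 0.176 or more. ATF3 was at -0.93 and called without H28, and at -0.025 without MSTO-211H. Without H2052 replicate 2, TRIB3 was at -0.20, SLC7A11 at -0.13, CHAC1 at 0.49 and DDIT3 at 0.023. CHAC1 turned to -0.0783 without H2452.

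**Figure D3:**
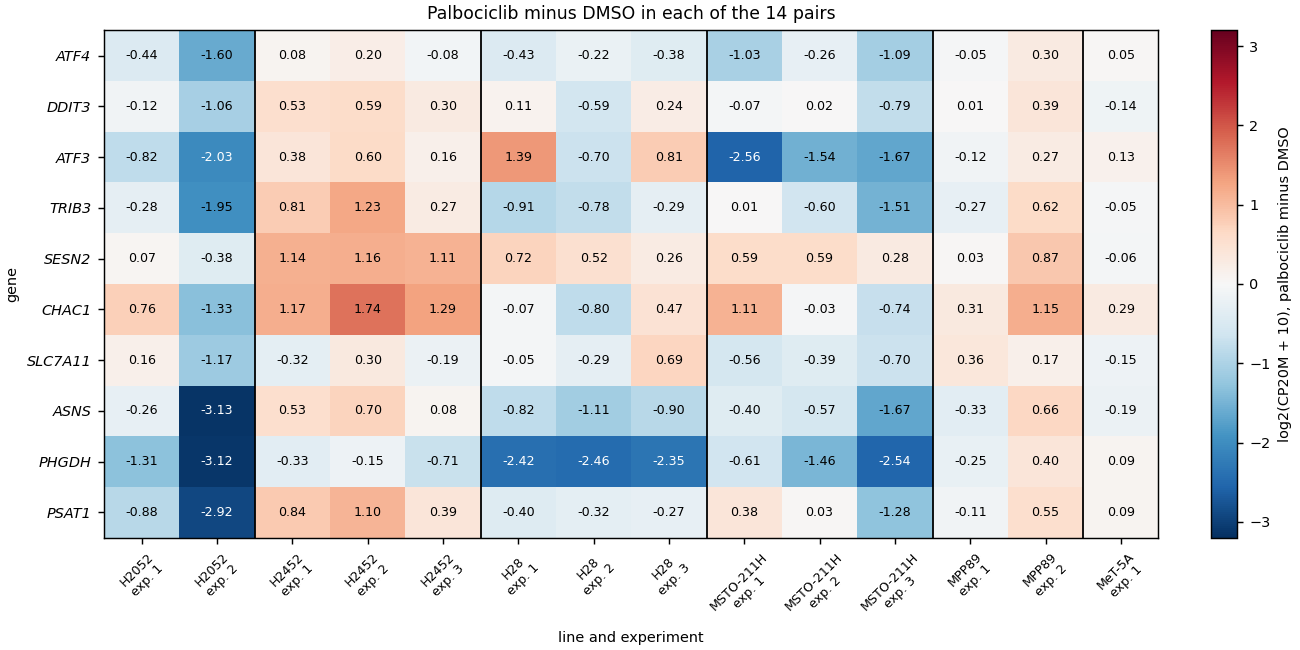
Heatmap of log2(CP20M + 10) with palbociclib minus DMSO for the 10 members (rows) in the 14 pairs (columns, by line and experiment); blue is lower and red is higher with palbociclib. PHGDH is lower in all 11 pairs of the 4 sensitive lines, H2452 has most members higher, and H2052 experiment 2 has all 10 lower.

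The response differed among the 4 sensitive lines for 6 of the 10 members (limma F test, FDR under 0.05), ATF4, ATF3, TRIB3, SESN2, PHGDH and PSAT1, where 38.6% of all genes passed. This count depended on the fit, as it was 1 (ATF3) with no replicate block, 3 (ATF3, SESN2 and PSAT1) with no filter, and 3 to 10 when single replicates were left out, with 10 without H2052 replicate 1 and 3 without H2452 replicate 1 or 2 or H28 replicate 1. Within H2452, 4 members rose and none fell, where 7.3% of 13828 genes were called higher and 12.6% lower. CHAC1 rose from 133, 109 and 189 CP20M with DMSO to 311, 387 and 475 with palbociclib, without overlap. Its log2 fold change was 1.40 (SE 0.14, limma adjusted p = 0.000938), that is 2.63-fold. SESN2 rose from 442, 406 and 617 CP20M to 984, 922 and 1347, a log2 fold change of 1.14 (SE 0.08, limma adjusted p = 0.000261). PSAT1 rose from 702, 826 and 1230 CP20M to 1263, 1781 and 1613, with a log2 fold change of 0.78 (SE 0.14, limma adjusted p = 0.00581). TRIB3 was at 1167, 753 and 1973 CP20M with DMSO and at 2060, 1781 and 2383 with palbociclib, which overlap, and higher in each pair, with a log2 fold change of 0.77 (SE 0.17, limma adjusted p = 0.0123), a call lost in 5 of 10 alternatives (adjusted p up to 0.128). DDIT3 and ASNS were higher in 3 of 3 pairs, with log2 fold changes of 0.48 and 0.44 that are under the fold limit (limma adjusted p = 0.00678 and 0.0314). PHGDH had a log2 fold change of -0.40 in this line (limma adjusted p = 0.0309), also under the fold limit.

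In H28, 3 of the 9 members tested fell and none rose, where 8.75% of genes were called higher and 10.9% lower. PHGDH had a log2 fold change of -2.41 (SE 0.09, limma adjusted p = 0.000169), that is 5.31-fold lower. ASNS fell from 1438, 1835 and 1172 CP20M to 811, 844 and 625, with a log2 fold change of -0.94 (SE 0.10, limma adjusted p = 0.00169). TRIB3 was at 7593, 3864 and 5298 CP20M with DMSO and at 4046, 2244 and 4324 with palbociclib, which overlap, with a log2 fold change of -0.66 (SE 0.13, limma adjusted p = 0.0113), a call lost in 5 of 10 alternatives (adjusted p up to 0.176). CHAC1 had 78, 93 and 34 CP20M with DMSO and 74, 49 and 51 with palbociclib, and it was higher in 1 of 3 pairs.

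In MSTO-211H, 4 of the 9 members tested fell and none rose, where 9.29% of genes were called higher and 13.8% lower. ATF3, an ATF/CREB family factor induced early in stress, fell from 278, 554 and 356 CP20M to 39, 184 and 105, without overlap. Its log2 fold change was -1.92 (SE 0.24, limma adjusted p = 0.00711). PHGDH had a log2 fold change of -1.54 (SE 0.34, limma adjusted p = 0.0221), ASNS of -0.88 (SE 0.25, limma adjusted p = 0.0437) and ATF4 of -0.79 (SE 0.18, limma adjusted p = 0.0251). The ASNS call was lost in 7 of 10 alternatives, and its value was -0.49 without replicate 3. ATF4 was at 2542, 4740 and 4673 CP20M with DMSO and at 1240, 3943 and 2191 with palbociclib, which overlap. Of these 4 calls, only that of ATF3 remained without the experiment block. ATF3 in H28, by contrast, was higher in 2 of 3 pairs, at 84, 118 and 98 CP20M with DMSO and 237, 69 and 179 with palbociclib (log2 fold change 0.50, limma adjusted p = 0.316).

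In H2052, 7 of the 10 members were called lower (ATF4, DDIT3, ATF3, TRIB3, ASNS, PHGDH and PSAT1) and none higher, where 7.47% of genes were called higher and 22.9% lower. This line has 2 pairs, and the differences came largely from DMSO replicate 2. ASNS was at 192 and 1508 CP20M with DMSO and at 159 and 164 with palbociclib, so that the log2 differences were -0.26 in experiment 1 and -3.13 in experiment 2. PSAT1 was at 835 and 3365 CP20M with DMSO and at 449 and 436 with palbociclib. ATF4 was at 2989 and 6639 CP20M with DMSO and at 2198 and 2181 with palbociclib. All 7 were lower in both pairs, but none of the 7 was called when genes were kept by their level in any of the 33 libraries. DDIT3, with a log2 fold change of -0.59 just past the fold limit, lost its call in 6 of 7 alternatives (limma adjusted p up to 0.283). CHAC1 went opposite ways in the 2 pairs, from 63 to 114 CP20M and from 415 to 159.

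The resistant lines were described and not tested line by line. In MPP89, CHAC1 was at 53 and 107 CP20M with DMSO and at 68 and 250 with palbociclib. Its log2 differences were 0.31 in experiment 1 and 1.15 in experiment 2, and the lower of the treated libraries lay between the DMSO libraries. Experiment 2 had higher values of CHAC1 in both arms, and all other members were also higher with palbociclib in it. ASNS was at 434 and 967 CP20M with DMSO and at 342 and 1531 with palbociclib, TRIB3 at 626 and 659 with DMSO and at 518 and 1021 with palbociclib, and SESN2 at 237 and 230 with DMSO and at 243 and 429 with palbociclib. All 10 members were higher with palbociclib in experiment 2, by 0.17 (SLC7A11) to 1.15 (CHAC1) on the log2 scale. This count includes CHAC1, which was singled out for these values. The share of all genes higher in this pair is not given here, so the count is not shown to be particular to the members. In experiment 1, 4 of the 10 were higher and 6 lower, from -0.33 (ASNS) to 0.36 (SLC7A11). MKI67 had a mean log2 difference of 0.05 over the 2 pairs. In the single pair of MeT-5A, CHAC1 was at 30 CP20M with DMSO and 39 with palbociclib, and the log2 differences of the 10 members went from -0.19 (ASNS) to 0.29 (CHAC1).
Sensitive and resistant lines were compared for the 9 members other than CHAC1, as the difference between the responses of 11 and 3 pairs. This fit takes the pairs as units although they come from 4 sensitive and 2 resistant lines, so its SE and p-values do not measure the spread between lines. None of the 9 was called (limma, FDR under 0.05, with no fold limit), where 9.52% of genes were, and 1 of the 9, PHGDH, had an unadjusted p under 0.05. PHGDH differed by -1.67 on the log2 scale between sensitive and resistant lines (SE 0.55, limma adjusted p = 0.0649). Its mean log2 differences were -2.41 in H28, -2.22 in H2052, -1.54 in MSTO-211H and -0.40 in H2452, beside 0.08 in MPP89 and 0.09 in MeT-5A.

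The washout libraries show the levels 48 h after the drug was removed. By the labels, the DMSO and palbociclib libraries of these experiments were taken at 10 days. No DMSO library of the later time is labelled, so the part of the longer culture was not tested. None of the 10 members was called between washout and palbociclib over the 4 lines (limma with the line as a block), where 1.61% of 16317 genes were called higher and 0% lower, and 1 member, PHGDH, had an unadjusted p under 0.05. PHGDH was higher after washout in 4 of 4 lines, from 490 to 849 CP20M in H28, from 309 to 731 in H2052, from 541 to 1216 in MSTO-211H and from 1308 to 2847 in H2452. The log2 difference was 1.07 (SE 0.34, limma adjusted p = 0.193). ASNS, PSAT1 and ATF4 had differences of 0.25, 0.40 and 0.02.
Against DMSO, washout libraries had 1 member called, ATF4, which was lower, where 3.08% of genes were called higher and 3.16% lower. ATF4 was at 6639, 4597, 6269 and 4673 CP20M in the DMSO libraries of H2052, H2452, H28 and MSTO-211H and at 2367, 3897, 4384 and 2581 after washout. Its log2 difference was -0.77 (SE 0.21, limma adjusted p = 0.0429), lower in 4 of 4 lines. Leaving out H2052, H28 or MSTO-211H ended the call, as did median-of-ratios scaling, no filter and eBayes without trend. When a line was left out, the call was kept only without H2452. PHGDH and ASNS had log2 differences of -1.11 and -1.15 from DMSO (limma adjusted p = 0.0601 and 0.0784). From palbociclib to washout, MKI67 went from 1816 to 4824 CP20M in H28 and from 806 to 6920 in H2052. It went from 777 to 3093 in MSTO-211H and from 177 to 8328 in H2452. The DMSO libraries of these experiments had MKI67 at 10717 (H28), 4725 (H2052), 5593 (MSTO-211H) and 7680 CP20M (H2452). The washout and palbociclib comparisons with DMSO share their DMSO libraries, one of which is H2052 DMSO replicate 2.

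**Figure D4:**
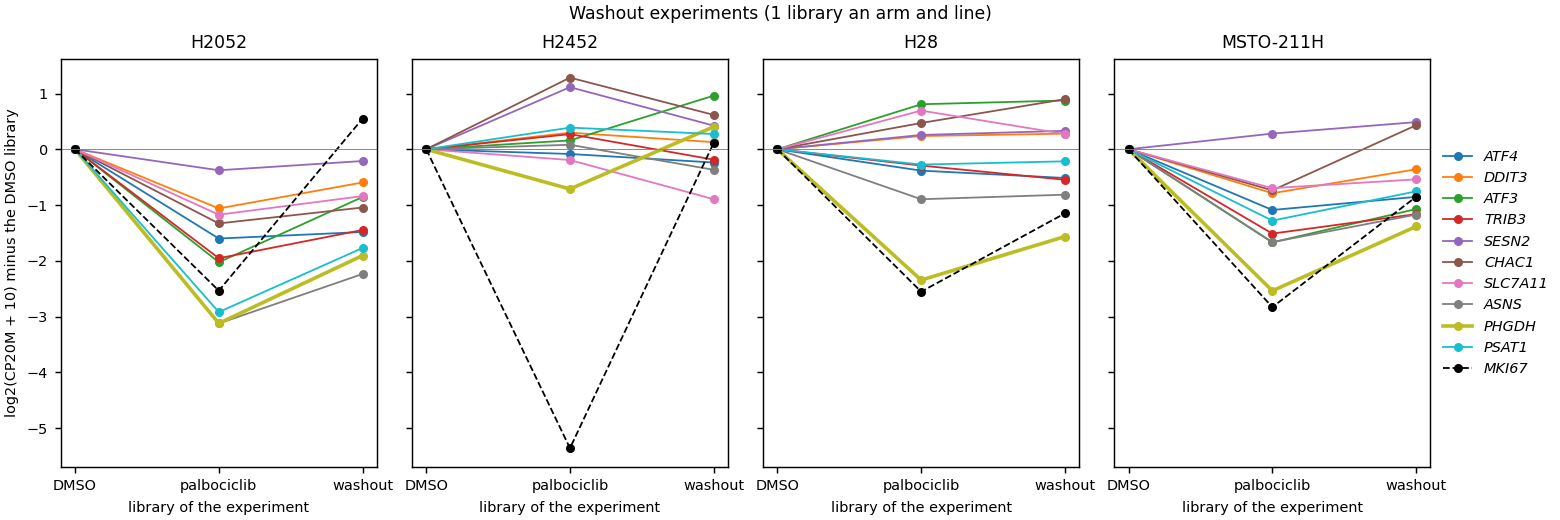
log2(CP20M + 10) of the 10 members and of MKI67 (dashed) in the palbociclib and washout libraries minus the DMSO library of the same experiment, 1 library per arm and line. PHGDH (thick line) is lowest with palbociclib and higher after washout in each of the 4 lines, and ends below DMSO in H2052, H28 and MSTO-211H but above it in H2452.

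Other genes around the response were counted over the 11 sensitive pairs in 8 lists, where 5.82% of all genes were called higher and 9.5% lower. None of 8 genes of amino acid and one-carbon synthesis, 7 amino acid transporters, 12 cytosolic tRNA synthetases, 13 eIF2 kinases and regulators or 8 genes of glutathione synthesis and breakdown was called. The medians of these lists were -0.24, -0.22, -0.16, -0.22 and -0.21 on the log2 scale, beside -0.11 for all genes. Among 10 of 12 stress factors and effectors that were tested, STC2, a secreted glycoprotein, rose, by 1.02 (SE 0.26, limma adjusted p = 0.00506), higher in 9 of 11 pairs. Among 16 genes of the IRE1 and ATF6 arms of the unfolded protein response, 1 rose, DNAJB9, a co-chaperone of the endoplasmic reticulum. These counts, 1 of 10 and 1 of 16, are near the share of all genes called higher. DNAJB9 was at 116 to 500 CP20M in the DMSO libraries and at 308 to 1045 with palbociclib, higher in 11 of 11 pairs, and its log2 fold change was 0.96 (SE 0.07, limma adjusted p = 4.08e-07). Among 6 relatives of the members, SESN3 rose by 1.17 (SE 0.25, limma adjusted p = 0.00184) and TRIB2 by 0.82 (SE 0.17, limma adjusted p = 0.0011), each higher in 10 of 11 pairs. SESN3 was low in part of the lines, at 17, 67 and 3 CP20M in H2452 with DMSO and 151, 135 and 90 with palbociclib, and at 29 to 46 in both arms of MSTO-211H. Its widest differences, 2.58 and 2.94 in H2452, thus started from 17 and 3 CP20M, while it went from 213 to 322 CP20M with DMSO to 588 to 821 with palbociclib in H28. Within lines, the counts of the 8 lists went both ways, and CHAC2 is in both the glutathione list and the relatives. Of 82 calls of members and list genes within the 4 lines, 4 were of genes that reached 100 CP20M in a single arm, so that the filter kept them through the arm where they are high. None was a member. They were SESN3 (called higher) in H2452 and CTH (higher), SLC6A9 and CHAC2 (both lower) in H2052, and they are no support for the counts of their lists. In H2052, where 7.47% of genes were called higher and 22.9% lower, 6 of 12 tRNA synthetases, 3 of 8 synthesis genes, 3 of 13 eIF2 genes, 2 of 7 transporters, 2 of 8 glutathione genes, 2 of 10 stress factors tested and 2 of 6 relatives were called lower. In the same line 3 of 16 genes of the IRE1 and ATF6 arms, 3 relatives, 2 stress factors, 1 synthesis gene and 1 glutathione gene were called higher. In H2452, against 7.3% higher and 12.6% lower, 4 of 10 stress factors, 3 of 5 relatives, 2 of 12 synthetases, 2 of 16 genes of the IRE1 and ATF6 arms and 1 of 7 transporters were called higher, and 2 of 7 glutathione genes, 1 of 13 eIF2 genes and 1 transporter lower. In H28, against 8.75% higher and 10.9% lower, 4 of 6 transporters, 1 of 6 synthesis genes and 1 of 9 stress factors were called lower, and 2 of 16 genes of the IRE1 and ATF6 arms and 1 of 5 relatives higher. In MSTO-211H, against 9.29% higher and 13.8% lower, 4 of 10 stress factors and 1 of 13 eIF2 genes were called lower, and 2 of 16 genes of the IRE1 and ATF6 arms, 2 of 5 relatives and 1 stress factor higher.

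The genes most like CHAC1 in their palbociclib minus DMSO differences over the 14 pairs, of 17516 genes compared, were CARS (Pearson's r 0.95), TRIB3 (0.94), AARS (0.93), ADM2 (0.92) and AC079781.5 (0.91). CARS and AARS encode the tRNA synthetases of cysteine and alanine. Those most like ASNS were AC079781.5 (0.999), PCK2 (0.97), MTHFD2 (0.96), CARS (0.95) and TRIB3 (0.95). PCK2 encodes the mitochondrial form of PEP carboxykinase and MTHFD2 a mitochondrial enzyme of folate metabolism. These values have no test, and the pairs share lines and the experiment 2 of H2052, which was low in all members. The MPP89 pairs, for which CHAC1 was singled out, are among the 14, so its list is a description only. AC079781.5 is annotated on chromosome 7 from 97851688 to 97972985 on the same strand as ASNS (97851677 to 97872542), so the authors' counting could have split reads between them, and both values are uncertain to that extent. Among the members, the median r over 45 pairs of genes was 0.71 across the 14 pairs, with all 45 above 0 and 37 above 0.5. The correlations with CHAC1 again include its MPP89 values, and the same summary for pairs of other genes is not given here.
Positions are those of GENCODE 44 on GRCh38. ATF4 is on chromosome 22 (39519695 to 39522683), CHAC1 on 15 (40952962 to 40956512), PHGDH on 1 (119648411 to 119744218), PSAT1 on 9 (78297125 to 78330093), SESN2 on 1 (28259518 to 28282491), ATF3 on 1 (212565334 to 212620777) and TRIB3 on 20 (362835 to 397559). DDIT3, on chromosome 12 (57516588 to 57521737), overlaps MARS and MBD6 on the opposite strand. On its own strand it overlaps MIR616, listed at up to 33 CP20M, and a protein-coding gene that is not in the matrix. SLC7A11, on chromosome 4 (138164097 to 138242349), overlaps SLC7A11-AS1, which was listed at up to 6002 CP20M, on the opposite strand. The libraries were directional, but the strand setting of the counting is not given in the sources used here. Reads of the pairs on opposite strands may thus not be told apart, and strand does not separate genes on the same strand.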

How the data were processed

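The authors trimmed paired-end reads with Trimmomatic 0.36, mapped them to GRCh38 with STAR 2.5.3 and counted them per gene of Ensembl release 90 with HTSeq 0.9.1, per the submitters' processing notes and the study's methods. The deposited values are a normalized score, counts per 20000000 reads rounded up, for 33 libraries and 58302 genes. The authors' DESeq2 model was not used, since these values are not read counts.

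Linear models (limma 3.58.1, eBayes with trend, R 4.3.3) were fitted to log2(CP20M + 10) of genes with at least 100 CP20M in 1 or more libraries of the fit, with Benjamini-Hochberg adjustment over all genes. A call was a fold change above 1.5 and FDR under 0.05, and F tests and the class difference used the FDR alone. The experiment was a block, as the study paired treated and control cells within experiments, and the line was the block for washout. Same-numbered libraries deviated together (r from 0.21 to 0.85 across genes). Named genes were the members, up to 3 called genes per list by size of change, the 5 genes most like CHAC1 and like ASNS, and MKI67. The members and lists were chosen with earlier results of these data known. The alternatives tried were no experiment block, pseudocounts, filters, scaling, eBayes without trend, leaving out replicates or lines and, added after seeing the data, line means as units. Fits were tested on simulated data. Figures were drawn with matplotlib 3.10.9.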

Additional observations from a re-analysis of the deposited data

Results flagged for a closer look

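The palbociclib response of 6 members differed among the 4 sensitive lines by the limma F test with Benjamini-Hochberg adjustment. The F values were 5.48 for ATF4 (adjusted p = 0.0397), 12.2 for ATF3 (0.00572), 6.43 for TRIB3 (0.0273), 17.3 for SESN2 (0.00238), 7.20 for PHGDH (0.0212) and 8.34 for PSAT1 (0.0150), where 38.6% of all genes passed. The count of 6 was 1 with no replicate block, 3 with no filter and 3 to 10 when single replicates were left out. H2452 is the line in which SESN2, TRIB3 and PSAT1 were called higher and PHGDH was not called.

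The change of SESN2 from palbociclib to washout had 1 line far from the others. It was -0.69 on the log2 scale in H2452, from 1347 to 831 CP20M, and 0.07, 0.17 and 0.21 in H28, H2052 and MSTO-211H, so that the gap was 0.853 of the whole range. In all, 20 groups of 4 were examined, and chance marks about 1 in 20 of them.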

How the results depend on the processing

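Over the sensitive lines, where PHGDH was the member called, the count was 2 with median-of-ratios scaling and without H2052 (SESN2 and PHGDH) or H28 (ATF3 and PHGDH), 4 without H2452 (ATF4, TRIB3, ASNS and PHGDH), and 1 to 2 when single replicates were left out (SESN2 joined without either H2052 replicate, ASNS without any H2452 replicate). PHGDH kept its call in all 23 alternatives, line means as units included, from -2.03 to -1.28 on the log2 scale. Values of members not called reversed for DDIT3 (0.11 with median-of-ratios scaling, 0.0385 without H2052, and -0.143 to 0.0227 when single replicates were left out, above 0 without H2052 replicate 2), PSAT1 (0.0507 without H2052) and CHAC1 (-0.0783 without H2452). In H2052 the count of 7 became 3 with no replicate block (ATF3, PHGDH and PSAT1) and 0 with the filter over all 33 libraries or with no filter. In MSTO-211H the count of 4 became 1, ATF3, with no replicate block, with the filter over all 33 libraries and with no filter, and it was 2 to 5 when a replicate was left out. The count of 6 members whose response differed among the 4 lines became 1 with no replicate block (ATF3) and 3 with no filter (ATF3, SESN2 and PSAT1), and went from 3 to 10 when a replicate was left out, the 10 being without H2052 replicate 1 and the 3 without H2452 replicate 1 or 2 or H28 replicate 1. For the class difference the count went from 0 to 1 (PHGDH) without H2452 replicate 1 or 2 or MSTO-211H replicate 1. Washout against palbociclib gave 0 to 1 (PHGDH, without H2452). The ATF4 call of washout against DMSO became 0 with no filter, with median-of-ratios scaling and with eBayes without trend, and 0 to 2 when a line was left out. The cause of these changes was not tested. The counts in H2452 and H28 stayed within 1.5 times the values reported in every alternative run. Single calls were less stable: TRIB3 lost its call in 5 of 10 alternatives in H2452 (adjusted p 0.00585 to 0.128) and in 5 of 10 in H28 (0.00471 to 0.176), ASNS in MSTO-211H in 7 of 10 (0.0163 to 0.3599) and DDIT3 in H2052 in 6 of 7 (0.0170 to 0.283), whereas CHAC1, SESN2 and PSAT1 in H2452, PHGDH and ASNS in H28 and ATF3 in MSTO-211H kept theirs in all 10. Median-of-ratios scaling also moved the share of higher calls for washout against DMSO from 49.4% to 70.5%.

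The replicate block was the experiment, which the study's methods give as the pairing. In the 3 lines with 3 pairs, 8 of 9 libraries deviated most like the library of their own number. In the lines with 2 pairs both replicates give the same r, so each line is 1 check. Depth limits CHAC1, whose low values in H28 and MSTO-211H rest on few reads, and the 2 pairs of H2052, 2 of MPP89 and 1 of MeT-5A limit what those lines can show.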

Other observations

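MeT-5A had 1 untreated library beside its DMSO library, and the labels give no second untreated library, so no comparison was made. ASNS was at 110 CP20M untreated and at 332 with DMSO, and PSAT1 at 305 and 735. The other members were closer, with ATF4 at 2825 and 2564, PHGDH at 1482 and 1601, SLC7A11 at 1039 and 957, TRIB3 at 634 and 563, DDIT3 at 331 and 259, ATF3 at 328 and 268, SESN2 at 346 and 331 and CHAC1 at 32 and 30 CP20M.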
